A study of Mus musculus with 16 samples.

Results

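Day 4 B16 tumor sites rich in host tissue transcripts were compared with control tissue over 10 of the 16 arrays of the study: day 4 arrays 1, 2 and 3 (n = 3) and control arrays 1 to 7 (n = 7). B16 is a pigmented melanoma cell line derived from C57BL/6 mice. Total RNA from C57BL/6 mice aged 8 weeks was hybridised to Illumina bead arrays, on which each probe reports 1 transcript by its brightness. The day 4 tissue is labelled as tumor microenvironment taken 4 days after inoculation of B16 cells, and the control as control tissue. The labels leave unstated the tissue of origin of the control, the slide of each array, whether arrays came from separate mice, and the tumor share of the day 4 tissue. P-values therefore set differences only against the scatter of these samples, and some of that scatter may be technical.

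The members were chosen on measured values. Day 4 array 4 was left out because Krt14, Acta1 and Col1a1 were near background on it. Krt14, the keratin of basal epidermal cells, stood at a log2 signal of 13.82, 14.42 and 14.54 on day 4 arrays 1, 2 and 3 and at 4.49 on array 4, against 14.18 to 14.50 on the controls (median 14.35). Acta1, the actin of skeletal muscle fibres, stood at 12.43, 14.06 and 14.18 and at 4.58 on array 4, against 13.10 to 14.39 (median 14.18). Col1a1, a chain of the collagen that gives the dermis its strength, stood at 11.27, 13.57 and 13.31 and at 4.45 on array 4, against 12.39 to 14.21 (median 13.69). The detection p on array 4 was 0.688 for Krt14, 0.5107 for Acta1 and 0.7746 for Col1a1, where a low value marks a probe brighter than the negative control beads. All 3 genes were detected on day 4 arrays 1 to 3, and array 1 lay below all 7 controls for each of them. These values chose the arrays and are not tested.

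Melanocytes and the melanoma cells derived from them make melanin in melanosomes, with Tyr, Tyrp1 and Dct as the enzymes and Pmel and Mlana as melanosome proteins. Melanocytes also sit in the hair bulb, where they are active while the hair grows and supply pigment to the shaft. A graft placed under the skin lies among epidermis, dermis, fat and a thin muscle layer, and is entered by blood vessels and immune cells. In bulk tissue such as this, fewer cells of a type and less RNA per cell cannot be told apart.

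No gene separated the 3 day 4 arrays from the 7 controls by a call. In limma's moderated test over 9449 named genes, 0 genes (0%) were called at a Benjamini-Hochberg adjusted p under 0.05 and at least 2-fold, and the lowest adjusted p was 0.9991. At an unadjusted p under 0.05, 21 genes were higher (0.222%) and 6 lower (0.0635%). These are fewer genes than that threshold passes on average when no gene differs. No gene had all 3 day 4 values beyond all 7 control values with means at least 2-fold apart, in either direction (0%). Single arrays set that count: it was 5 higher and 13 lower without day 4 array 2, 2 and 3 without day 4 array 1, 2 and 3 without day 4 array 3, and 1 and 5 without control 6. The median standard error of a gene's log2 difference was 0.27. The means of 34 genes differed at least 2-fold, 5 higher at day 4 (0.0529%) and 29 lower (0.307%), all with overlapping groups. The 3 day 4 arrays themselves spanned at least 2-fold for 4080 genes (43.2%), with a median range of 0.88 on the log2 scale.

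**Figure D1:**
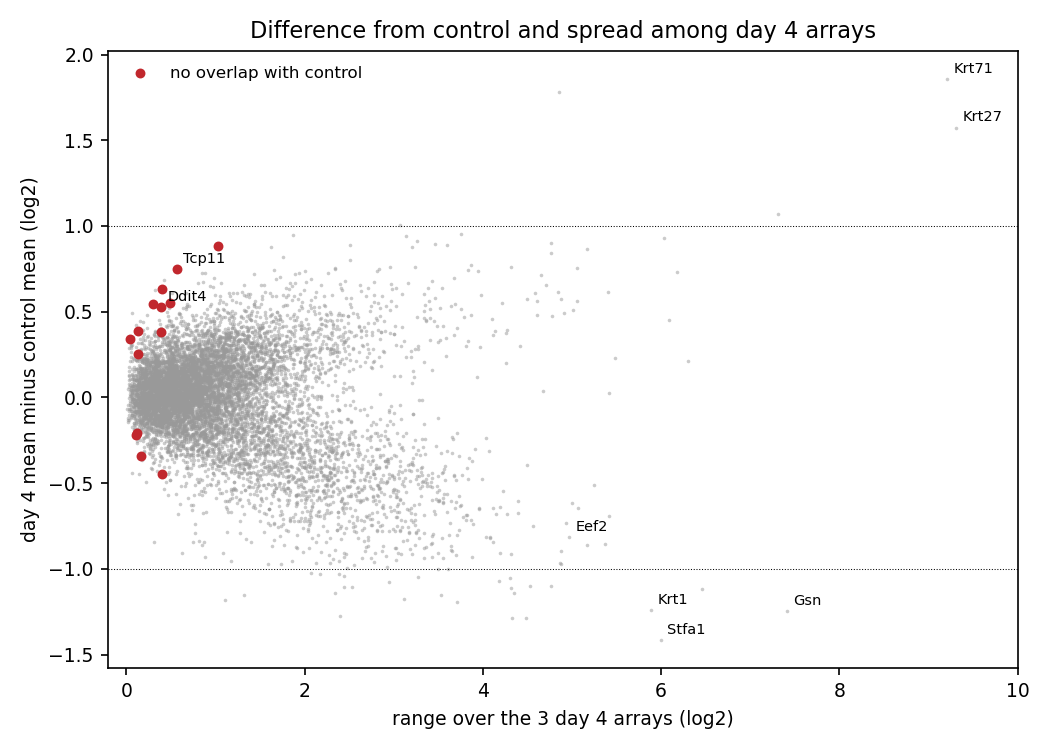
Each point is 1 of 9449 genes, in red where the 3 day 4 values lay beyond all 7 controls. The x axis gives the range over the 3 day 4 arrays and the y axis the day 4 mean minus the control mean, both on the log2 scale, and most genes with large differences of means lie where the day 4 arrays differed most among themselves, such as Krt71 with a difference of 1.86 and a range of 9.21.

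The spread followed single arrays, and the largest part of it was shared by 1 array of each group. Over the 9449 genes, the log2 signals of day 4 array 1 had a Pearson correlation of 0.979 with those of control 6, against 0.765 to 0.890 with the other 6 controls and 0.801 and 0.878 with the other day 4 arrays. The nearest control to day 4 array 2 was control 3 (0.978), and the nearest to day 4 array 3 was control 4 (0.980). The correlation between day 4 arrays 2 and 3 was 0.950, and the 21 pairs of controls ranged from 0.814 to 0.981. Each day 4 array therefore lay closer to some control than to either other day 4 array. These correlations are across genes, which are not independent replicates, and are given as a description. The leading principal component held 61.4% of the variance, with day 4 array 1 at 86.8 and control 6 at 68.6 at one end and control 1 at -47.2 and day 4 array 2 at -35.9 at the other. Membership in the day 4 or control group accounted for 5.8% of the total sum of squares. Of the 200 genes with the largest range over the day 4 arrays, control 6 was the control nearest to day 4 array 1 for 192. These genes were picked on the day 4 values and the share over all genes was not taken, so the count is a description. Probes detected at p under 0.05 numbered 18468, 21200 and 20886 on the day 4 arrays and 19466 to 21100 on the controls. Their means of 20185 ± 1495 (SD, n = 3) and 20350 ± 549 (SD, n = 7) did not differ beyond the spread (exact permutation test, two-sided p = 0.825). Day 4 array 4, left out by the choice of arrays, had 16160, fewer than any array compared. The permutation test covers only the arrays kept. Among these, day 4 array 1 and control 6 had the lowest numbers of their groups.

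**Figure D2:**
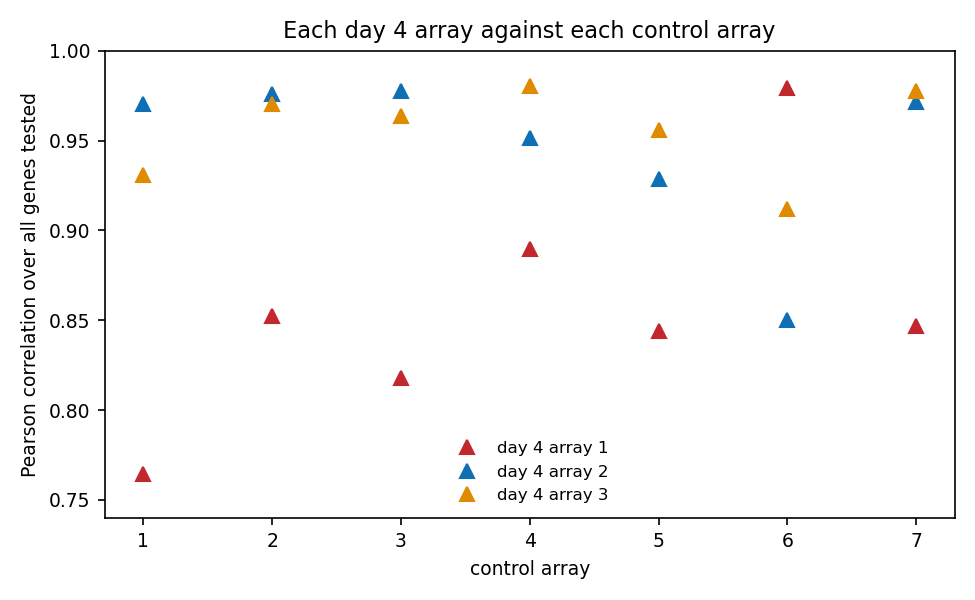
Pearson correlation over 9449 genes (y axis) of each day 4 array with each of the 7 control arrays (x axis). The array labelled day 4 array 1 reached 0.979 with control 6 and stayed at or below 0.890 with the others, while day 4 arrays 2 and 3 had their lowest values with control 6.

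Of all genes, the hair keratins Krt71 and Krt27 had the largest range over the day 4 arrays, and Krt71 had the largest positive difference of means (1.86). Krt71, a keratin of the inner root sheath that moulds the growing hair, stood at 13.63, 4.42 and 7.81 on day 4 arrays 1, 2 and 3. On the controls it stood at 4.46, 5.52, 6.01, 8.04, 4.57, 14.33 and 4.40 in order of their number, and the difference was 1.86 ± 2.32 (SE). It was high on day 4 array 1 and on control 6, intermediate on day 4 array 3 and control 4, and near background on day 4 array 2 and on controls 1, 5 and 7. Krt27, its partner keratin of the root sheath, stood at 13.89, 4.58 and 8.42 against 4.84 to 14.16 (median 6.46), with the highest control again control 6. Krt33a, a keratin of the hair cortex, stood at 12.59, 5.38 and 5.29 against 5.03 to 13.59 (median 5.18). Only day 4 array 1 and control 6 had Krt33a above 8. Krt28, a further root sheath keratin, stood at 12.04, 7.19 and 8.16 against 5.46 to 12.62 (median 6.77). Krt71, Krt27, Krt33a and Krt28 were 4 of the 5 genes with a mean at least 2-fold higher at day 4. The other was Acod1, the itaconate-making enzyme of activated macrophages, at 8.19, 6.59 and 5.12 against 4.78 to 7.40 (median 5.34). Krt28 and Acod1 were named after their values were seen.

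Of the hair follicle list, 7 of 38 genes were measured, and the mean was higher at day 4 for 5 and lower for 2, where 52.3% of all genes were higher. None was called. The median difference of the list was 1.07, against 0.01 over all genes. The list's mean log2 signal was 11.82, 7.58 and 8.71 on the day 4 arrays and 6.83 (control 5) to 12.58 (control 6) on the controls, with a median of 7.90. The list median was 0.04 without day 4 array 1, 2.25 without array 2, 1.85 without array 3 and 2.21 without control 6. Without both day 4 array 1 and control 6, a choice made after seeing the data, it was 0.45. Crym, a thyroid hormone binding protein, and Tchhl1, of the trichohyalin family of structural proteins, had the same pattern. Crym stood at 11.96, 5.93 and 6.15 against 5.15 to 12.45 (median 6.43), and Tchhl1 at 11.14, 4.96 and 5.04 against 4.79 to 11.88 (median 5.38), with control 6 the highest control for both.

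Pigment transcripts were present in control tissue as well as at the tumor site, and the groups overlapped for every marker. Mlana stood at 14.29, 10.54 and 13.54 on day 4 arrays 1, 2 and 3. On controls 1 to 7 it stood at 4.65, 12.76, 11.54, 13.37, 13.44, 14.48 and 12.61, and the difference was 0.95 ± 1.81 (SE). Mlana was at background on control 1 and bright on the other 6 controls, and day 4 array 2 lay below all of those 6. Pmel, the fibril protein of the melanosome, stood at 14.27, 9.94 and 13.09 against 5.58 to 14.28 (median 12.65), and Tyrp1 at 13.55, 10.93 and 12.88 against 5.40 to 13.40 (median 13.21). Dct stood at 14.47, 13.22 and 14.15 against 8.33 to 14.51 (median 14.21). Tyr, the enzyme of the opening steps from tyrosine to melanin, stood at 10.70, 5.79 and 8.64 against 4.40 to 10.77 (median 8.69). For all 5 markers the lowest control was control 1 and day 4 array 2 was the lowest day 4 array. Sox10, a transcription factor of melanocytes and Schwann cells, followed them at 13.08, 10.06 and 12.27 against 7.75 (control 1) to 12.65 (control 6). Gpr158, an orphan receptor, ranged likewise, at 10.93, 4.84 and 7.44 against 4.61 to 10.60 (median 7.64).

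Over the pigment list, 17 of 19 genes had a higher mean at day 4, with a median difference of 0.35, and none was called. The list mean was 11.54, 8.43 and 10.56 on the day 4 arrays and 6.47 (control 1) to 11.45 (control 6) on the controls, with a median of 10.29. The mean of day 4 array 1 lay above every control by a small margin, array 3 lay within the controls, and array 2 lay below all controls except control 1. The median turned negative without day 4 array 1, at -0.26, and without control 1, at -0.19, and rose to 1.41 without day 4 array 2. The labels do not say whether the pigment transcripts on the controls came from resident melanocytes, and their source was not tested.

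CATGTG is the core of the M-box, the element bound by MITF, the factor that drives pigment genes. In the 250 bases before the gene start (RefSeq, GRCm38.p6), it was found on either strand in 5 of the 13 pigment genes with a promoter in the table (38.5%), and in 3307 of all 27025 promoters (12.2%). A match is a description of letters and not of binding. The promoters of Oca2, a melanosome ion transport protein, and of Tyr are shown because, of those with a match, their transcripts differed most among the day 4 arrays. Genes on 1 chromosome were passed over in this choice. The capitals mark the match, which lies on the opposite strand in Oca2 (chr7:56239509-56239758, + strand) and on the gene's strand in Tyr (chr7:87493513-87493762, - strand).
Oca2: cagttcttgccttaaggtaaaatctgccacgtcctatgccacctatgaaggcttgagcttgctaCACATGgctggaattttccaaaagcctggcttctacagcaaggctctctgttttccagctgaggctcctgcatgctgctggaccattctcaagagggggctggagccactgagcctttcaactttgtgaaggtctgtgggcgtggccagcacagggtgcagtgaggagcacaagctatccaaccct
Tyr: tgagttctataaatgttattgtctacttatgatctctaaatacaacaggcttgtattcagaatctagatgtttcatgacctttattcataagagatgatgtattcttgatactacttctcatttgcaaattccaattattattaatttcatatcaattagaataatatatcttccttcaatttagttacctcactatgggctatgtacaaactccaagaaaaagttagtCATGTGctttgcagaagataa
Oca2 stood at 11.27, 4.97 and 9.65 on the day 4 arrays against 4.43 to 11.42 on the controls (median 9.39), a range of 6.30 within day 4. The range of Tyr within day 4 was 4.91. Both were high on day 4 array 1 and low on day 4 array 2.

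**Figure D3:**
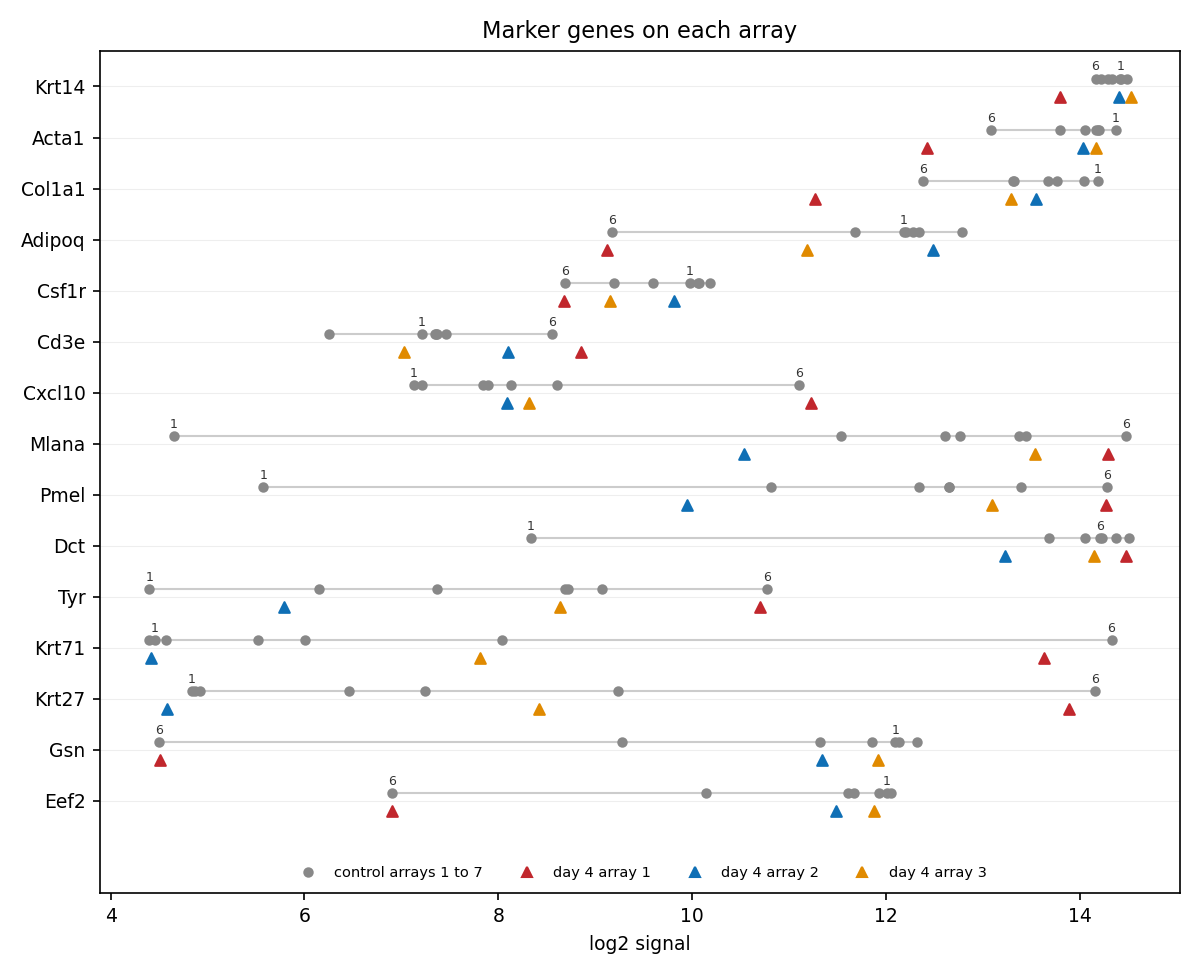
Log2 signal (x axis) of 15 marker genes on each array, with the 7 controls as grey points (controls 1 and 6 numbered) and the 3 day 4 arrays as triangles. The red triangle of day 4 array 1 lies beside control 6 for the hair keratins, Gsn, Eef2 and Cxcl10, and control 1 is the lowest array for Mlana, Pmel, Dct and Tyr.

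Transcripts of epidermis, muscle, fat and dermis had lower means at day 4, and day 4 array 1 was the lowest array on each list. All 31 muscle genes measured had a lower mean, with a median of -0.71, as did 14 of 14 fat genes (median -0.56), 28 of 29 epidermal genes (median -0.33) and 21 of 23 fibroblast genes (median -0.50). None was called in any of the 4 lists. The muscle list mean was 8.74, 11.46 and 10.99 on the day 4 arrays against 9.30 (control 6) to 13.09 (control 5), with a median of 11.07. The fat list mean was 8.62, 10.73 and 10.06 against 8.77 (control 6) to 11.09 (control 2), with a median of 10.65. For both lists day 4 array 1 lay below every control, and arrays 2 and 3 lay within the controls. On the fat list array 3 lay below every control except control 6. The epidermal list mean was 9.96, 12.19 and 11.23 against 10.34 (control 5) to 12.58 (control 1), with a median of 11.56. The fibroblast list mean was 9.44, 10.98 and 10.74 against 9.89 (control 6) to 11.44 (control 1), with a median of 10.93. Here too day 4 array 1 alone lay outside the controls. Without it, the medians were 0.12 for muscle, 0.14 for epidermis, 0.02 for fibroblasts and -0.06 for fat. Leaving out control 6 as well was a choice made after seeing the data. The medians were then -0.18 for muscle, 0.09 for epidermis, -0.18 for fibroblasts and -0.35 for fat. Since the arrays were chosen on one gene each of epidermis, muscle and dermis, these lists are described and not tested.

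Markers of these tissues follow. Krt1, the keratin of differentiating epidermis, stood at 7.63, 13.52 and 12.27 against 9.26 to 13.71 (median 13.44), a difference of -1.24 ± 1.29 (SE). Krt5, the partner of Krt14, stood at 9.13, 12.61 and 11.98 against 10.49 to 13.01 (median 11.66), and Krt10, the partner of Krt1, at 13.71, 14.61 and 14.24 against 14.19 to 14.47 (median 14.42). For Krt1, Krt5 and Krt10 the lowest of the 10 arrays was day 4 array 1, while array 2 had the highest Krt10 of all. Krt77, a further epidermal keratin, ranged from 6.61 on day 4 array 1 to 13.07 on array 2, against 8.29 to 13.15 on the controls. Among muscle genes, Ckm, the creatine kinase of muscle, stood at 10.01, 13.02 and 12.53 against 10.60 to 14.30 (median 12.37), and Mylpf, a myosin light chain of fast fibres, at 11.45, 13.92 and 13.95 against 12.34 to 14.46 (median 13.56). Control 5 was the highest array for both. Myh4, a fast myosin heavy chain, stood at 6.78, 10.43 and 9.05 against 6.75 to 12.53 (median 9.63). Tnnc1, the troponin C of slow and cardiac muscle, stood at 12.52 on control 5 and at 5.20 to 5.75 on the other 6 controls, with 4.78, 6.09 and 5.36 at day 4. Its difference of -1.15 ± 1.38 (SE) came from that control.

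In dermis and fat, Col1a2, the partner chain of Col1a1, stood at 6.98, 10.50 and 9.51 against 7.61 to 11.25 (median 10.52), a difference of -1.15 ± 0.84 (SE). Col3a1, the collagen of pliable dermis, stood at 8.32, 10.76 and 9.35 against 8.82 to 11.49 (median 10.85), and Dcn, a small proteoglycan that binds collagen fibrils, at 12.49, 14.20 and 14.08 against 13.09 to 14.35 (median 14.26). All 3 were below every control on day 4 array 1, and all 3 were below 6 of the 7 controls on array 3. Adipoq, the adiponectin hormone of fat cells, stood at 9.12, 12.49 and 11.18 against 9.18 to 12.78 (median 12.20). Thrsp, a lipogenic factor, stood at 7.37, 8.47 and 8.12 against 6.71 to 10.67 (median 9.12), and Cidec, a lipid droplet protein, at 7.84, 10.86 and 9.30 against 8.41 to 11.02 (median 10.42). For Thrsp all 3 day 4 arrays lay below 6 of the 7 controls, and control 6 lay below them. Plin1, which coats lipid droplets, was dim, at 4.73, 6.25 and 5.63 against 4.56 to 6.67. Day 4 array 3 lay below 6 of the 7 controls for Adipoq, Cidec and Plin1 as well. Dgat2, the triglyceride-making enzyme that leads the sebaceous list, stood at 10.56, 13.14 and 12.39 against 11.04 to 13.39 (median 12.67). In that list 4 means were higher and 7 lower.

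**Figure D4:**
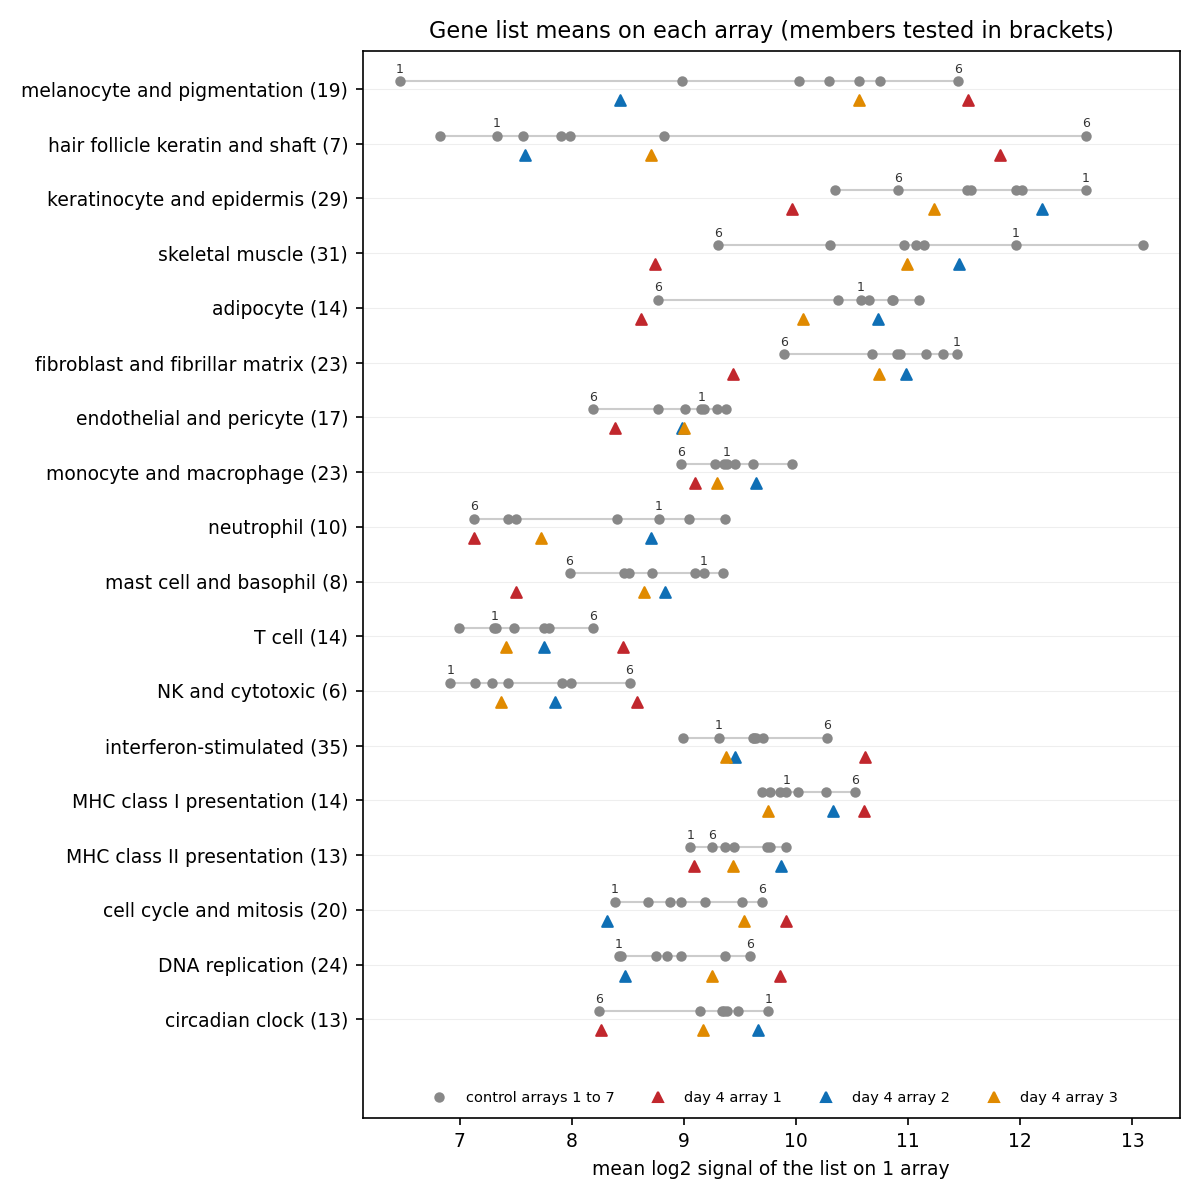
Mean log2 signal (x axis) of 18 gene lists on each array, with the 7 controls as grey points (controls 1 and 6 numbered) and the 3 day 4 arrays as triangles. The mean on day 4 array 1 lies below all controls for muscle, fat, epidermis, fibroblasts and mast cells. It lies above all controls for pigment, T cell, cytotoxic, interferon-stimulated, MHC class I, mitosis and replication genes. Day 4 arrays 2 and 3 lie within the control range for those lists, except that array 2 lies below it for mitosis.

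The list means of interferon-stimulated, MHC class I, T cell and cytotoxic genes were each highest of the 10 arrays on day 4 array 1, and within the control range on arrays 2 and 3. Interferons signal through STAT and IRF factors to antiviral genes, antigen presentation and chemokines that draw T cells. Cxcl10, one of those chemokines, stood at 11.23, 8.09 and 8.32 on the day 4 arrays. On controls 1 to 7 it stood at 7.13, 8.13, 7.89, 8.61, 7.84, 11.11 and 7.21, and the difference was 0.94 ± 0.88 (SE). It was high on day 4 array 1 and on control 6 and lower on the other 8 arrays. Irf7, a factor that amplifies the type I interferon response, stood at 8.64, 8.06 and 7.06 against 6.58 to 8.40 (median 7.90). Of the interferon-stimulated list, 30 of 35 genes had a higher mean at day 4, with a median of 0.18, and none was called. The list mean was 10.62, 9.46 and 9.38 against 8.99 (control 7) to 10.28 (control 6), with a median of 9.62. Without day 4 array 1 the list median was -0.18.

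The interferon-stimulated response element has at its core a repeat of GAAA, here read as 2 copies with any 2 bases between them. It was found on either strand in 14 of the 27 list promoters in the table (51.9%) and in 821 of all 27025 promoters (3.04%), each read over 250 bases before the start. The promoters of Igtp, an interferon-induced GTPase that acts against vacuole-dwelling pathogens, and of Cxcl10 are shown, again as those with a match whose transcripts differed most among the day 4 arrays. Genes on the same chromosome as before were passed over. The capitals mark the match, on the gene's strand in both (RefSeq, GRCm38.p6, Igtp at chr11:58199306-58199555 on the + strand and Cxcl10 at chr5:92348890-92349139 on the - strand).
Igtp: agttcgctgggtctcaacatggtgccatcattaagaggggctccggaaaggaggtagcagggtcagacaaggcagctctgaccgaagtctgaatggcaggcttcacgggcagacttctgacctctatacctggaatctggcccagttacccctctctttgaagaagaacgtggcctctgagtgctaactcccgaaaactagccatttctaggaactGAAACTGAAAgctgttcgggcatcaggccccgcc
Cxcl10: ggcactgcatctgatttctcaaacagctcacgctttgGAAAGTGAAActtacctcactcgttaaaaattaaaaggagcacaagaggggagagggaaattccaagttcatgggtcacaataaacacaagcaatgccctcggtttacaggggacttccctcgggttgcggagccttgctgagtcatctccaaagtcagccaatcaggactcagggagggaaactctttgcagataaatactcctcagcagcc
Igtp stood at 12.70, 9.44 and 9.37 on the day 4 arrays, against 8.97 to 12.81 on the controls (median 9.73). Its range within day 4 was 3.33, and that of Cxcl10 was 3.14. Control 6 was again the only control near day 4 array 1.

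Psmb8, a subunit of the immunoproteasome that cuts peptides for MHC class I, stood at 12.92, 11.71 and 11.10 against 10.59 to 12.71 (median 11.27), a difference of 0.60 ± 0.47 (SE). In the MHC class I list 12 of 14 means were higher, with a median of 0.27, and the list mean was 10.61, 10.33 and 9.75 against 9.70 to 10.53 (median 9.91). Cd274, the checkpoint ligand PD-L1, stood at 10.30, 9.19 and 9.47 against 8.73 to 10.30 (median 9.40), so day 4 array 1 matched control 6. Among T cell genes, Cd3d stood at 9.24, 8.08 and 7.17 against 6.69 to 9.07 (median 7.26), Cd3e at 8.85, 8.10 and 7.03 against 6.25 to 8.55 (median 7.35) and Cd3g at 10.05, 9.11 and 8.73 against 7.86 to 9.90 (median 8.66). These 3 encode chains of the T cell receptor complex, and for each, the signal on day 4 array 1 lay above all 7 controls and that on array 2 above all except control 6. The T cell list had 12 of 14 means higher, with a median of 0.37, and list means of 8.46, 7.75 and 7.41 against 7.00 to 8.19 (median 7.48). Without day 4 array 1 the T cell median was 0.17 and the MHC class I median 0.04. With day 4 array 4 included they were -0.145 and -0.15.

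Nkg7, a granule protein of cytotoxic lymphocytes, stood at 9.91, 8.15 and 7.56 against 6.61 to 9.73 (median 7.43). The cytotoxic list had 5 of 6 means higher (median 0.33, and 0.02 without day 4 array 1). Foxp3, which specifies regulatory T cells, stood at 10.06, 9.20 and 9.49 against 9.24 to 9.95 (median 9.43), and its other probe at 6.17, 6.00 and 5.74 against 4.73 to 6.33. Ptprc, the leukocyte antigen CD45, was dim at 6.39, 6.03 and 5.46 against 5.51 to 6.15 (median 5.68). Neither gene had its day 4 values on one side of the controls. The B cell list rested on Cd79b alone, a chain of the B cell receptor, at 6.17, 6.00 and 5.67 against 5.48 to 6.69.

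Macrophage genes as a list lay within the control range on all 3 day 4 arrays. The list mean was 9.10, 9.64 and 9.29 against 8.97 (control 6) to 9.96 (control 3), with a median of 9.38, and 7 of 23 means were higher. Csf1r, the growth factor receptor of macrophages, stood at 8.67, 9.81 and 9.15 against 8.69 to 10.19 (median 9.98). Lyz2, the lysozyme of myeloid cells, stood at 13.59, 13.87 and 14.04 against 13.35 to 14.27, and C1qa, a chain of the complement starter C1q, at 8.97, 10.04 and 10.22 against 8.98 to 10.52. Their differences were 0.06 ± 0.21 and -0.13 ± 0.35 (SE). Cd163, a haemoglobin scavenger receptor of resident macrophages, stood at 6.75, 9.92 and 8.71 against 7.05 to 10.15 (median 9.37). It was low on day 4 array 1 and on control 6. In the neutrophil list 9 of 10 means were lower (median -0.31), led by Stfa1, a stefin that inhibits cysteine proteases, at 7.43, 13.43 and 11.07 against 7.58 to 14.26 (median 13.02). S100a8, a calcium-binding alarmin of neutrophils and stressed epidermis, stood at 8.86, 6.88 and 6.49 against 6.06 to 9.06 and did not follow Stfa1.

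Mast cell proteases were low on day 4 array 1 by their brightest probes. Cma1, a chymase, stood at 7.01, 9.55 and 8.82 against 7.86 to 9.95 (median 9.39). Cpa3, a carboxypeptidase of the granules, stood at 8.15, 10.66 and 9.83 against 8.68 to 10.89 (median 10.20). Another probe of Cpa3 was likewise below all controls on day 4 array 1, at 7.85 against 8.26 to 11.06. Its dimmest probe stood at 6.56, 7.54 and 6.13 against 5.96 to 7.68, with day 4 array 1 within the controls. Mcpt4, a further chymase, stood at 8.29, 10.90 and 10.51 against 9.64 to 11.04 (median 10.35). All 8 mast cell genes had a lower mean (median -0.41), and the list median was 0.03 without day 4 array 1. Without control 6 as well, the list median was -0.22. Dendritic cell genes had 7 of 12 means higher, with Ccl17, a chemokine for T cells, at 5.99, 6.71 and 5.85 against 4.63 to 6.75 and detected on 3 of 7 controls. MHC class II genes had 5 of 13 higher (median -0.04), with H2-Ob, which tunes peptide loading, at 4.83, 6.30 and 5.44 against 5.26 to 6.51. The cytokine list lay between 8.47 and 8.72 at day 4, within the 8.26 to 8.91 of the controls. Ccl3, an inflammatory chemokine in that list, stood at 8.32, 6.23 and 5.51 against 4.36 to 8.62. In the endothelial list 3 of 17 means were higher, with Pecam1 at 8.84, 9.20 and 9.38 against 8.85 to 9.78, Cdh5, the junction cadherin of endothelium, at 8.63, 7.88 and 8.05 against 7.71 to 8.92, and Rgs5, of pericytes, at 4.63, 7.40 and 7.78 against 5.21 to 8.66. Of the erythrocyte list 2 genes were measured, and Alas2, the haem synthesis enzyme of red cell precursors, was at 7.17, 6.18 and 6.45 against 5.95 to 9.96.

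Cell cycle genes had small differences of means. All 20 mitosis genes had a higher mean at day 4 (median 0.21), as did 23 of 24 DNA replication genes (median 0.26), and none was called. The mitosis list mean was 9.91, 8.31 and 9.54 against 8.39 (control 1) to 9.69 (control 6), with a median of 8.98. On this list day 4 array 1 lay above all controls and array 2 below all of them. The replication list mean was 9.86, 8.47 and 9.25 against 8.42 to 9.59 (median 8.85). Without day 4 array 1 the medians were -0.15 for mitosis and -0.03 for replication. Without control 6 as well, a choice made after seeing the data, they were -0.06 and 0.05. Gins2, part of the replicative helicase, stood at 8.56, 7.86 and 8.31 against 7.40 to 8.38 (median 7.57).

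Hypoxia and sugar metabolism showed small differences. Car9, a carbonic anhydrase induced by low oxygen, stood at 10.70, 8.94 and 9.48 against 5.28 (control 1) to 9.80 (median 9.63). Vegfa, the vessel growth factor, stood at 10.14, 9.81 and 10.27 against 9.11 to 10.74 (median 10.20), a difference of -0.01 ± 0.33 (SE). Of the hypoxia list 12 of 16 means were higher (median 0.10), and of glycolysis 10 of 13 (median 0.21). Of oxidative phosphorylation 19 of 30 were higher (median 0.06). Without day 4 array 1 these medians were 0.02, -0.06 and -0.14. Without control 1 they were 0.03, 0.0044 and 0.01. Without both day 4 array 1 and control 6, a choice made after seeing the data, they were 0.0007, 0.02 and -0.08. Aldoc, a glycolytic aldolase, stood at 11.34, 8.71 and 9.74 against 7.65 to 10.61 (median 9.60), and Sdhd, an anchor of respiratory complex II, at 7.67, 6.57 and 6.69 against 6.35 to 7.15. Cholesterol synthesis was nearly level over the 3 day 4 arrays, at list means of 10.13, 10.17 and 10.04 against 9.26 to 10.20 (median 9.88). Of its genes 9 of 12 had a higher mean (median 0.22, and 0.17 without day 4 array 1). Mvd, an enzyme of the mevalonate steps, stood at 9.88, 9.93 and 9.45 against 8.22 to 9.68, a difference of 0.52 ± 0.30 (SE).

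Remaining lists of stress, repair and rhythm had medians between -0.19 and -0.0023. The circadian list mean was 8.26, 9.66 and 9.17 against 8.24 (control 6) to 9.75 (control 1), with Per2, a repressor of the clock, at 7.98, 10.60 and 10.32 against 8.37 to 11.41. Immediate early genes lay at 8.86, 9.43 and 9.12 against 8.95 to 9.39, with Dusp2, a MAP kinase phosphatase, at 10.35, 6.94 and 8.43 against 6.55 to 10.45. For that list day 4 array 1 was just below and array 2 just above the controls. Among antioxidant genes, Mt2, a metallothionein, stood at 7.69, 6.21 and 6.89 against 6.02 to 7.14, and Hspb8, a small heat shock protein, at 10.74, 12.16 and 12.29 against 11.45 to 13.18. In wound repair 6 of 19 means were higher, with Tgfb2, a TGF-beta ligand, at 5.52, 7.00 and 6.34 against 5.99 to 7.56. In matrix proteases 6 of 18 were higher, with Mmp2, a gelatinase of fibroblasts, at 11.06, 13.09 and 12.85 against 11.88 to 13.83. In complement 3 of 13 were higher, with C1s1, a C1 protease, at 6.60, 7.82 and 8.41 against 6.91 to 9.42. Nerve genes had 3 of 9 means higher.

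Gsn, Eef2 and Actb set day 4 array 1 and control 6 apart from the other 8 arrays. Gsn, gelsolin, which severs actin filaments, stood at 4.51, 11.34 and 11.92 on the day 4 arrays and at 12.10, 9.28, 12.14, 11.32, 12.32, 4.50 and 11.85 on controls 1 to 7. It was at background on day 4 array 1 and on control 6 and bright on the other 8 arrays. Eef2, the translation elongation factor, stood at 6.90, 11.48 and 11.87 against 12.01, 10.15, 12.06, 11.61, 11.92, 6.91 and 11.67, and with its other 2 probes, too, day 4 array 1 and control 6 were the lowest arrays. Actb, cytoplasmic actin, has 3 probes that went apart. The brightest stood at 13.01, 14.01 and 14.56 on the day 4 arrays and at 12.99 on control 6, where the other controls were at 14.12 to 14.47. Another stood at 14.44, 9.52 and 12.65 on the day 4 arrays and at 14.25 on control 6, where the other controls were at 10.69 to 12.59. These 2 arrays were thus the lowest arrays for the first probe and the highest for the other. Eef2 and Actb were chosen after their values were seen, and what lies behind this split was not tested.

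With no minimum on the fold, a choice made after seeing the data, 14 genes had all 3 day 4 values beyond all 7 controls, 10 higher (0.106% of genes) and 4 lower (0.0423%). When the groups do not differ, 3 of 10 arrays lie beyond the other 7 in a given direction with a probability of 0.00833 per gene. Both shares are smaller than this fraction, so these are fewer genes than separate on average when no gene differs. All 14 were named after their values were seen, and none was called. Ddit4, an inhibitor of mTOR signalling induced by stress and low oxygen, stood at 9.94, 9.56 and 9.56 against 8.61 to 9.45 (median 9.29), a difference of 0.53 ± 0.20 (SE). Mtor itself stood at 9.37, 9.51 and 9.49 against 9.05 to 9.29 (median 9.22), a difference of 0.25 ± 0.13 (SE), and its dimmer probe overlapped. Pttg1, securin, which keeps sister chromatids from separating before anaphase, stood at 6.11, 6.45 and 5.95 against 5.29 to 5.94 (median 5.61). Its difference was 0.55 ± 0.19 (SE). Its lowest day 4 value was next to the highest control. Magi1, a scaffold of cell junctions, stood at 6.33, 6.55 and 6.15 against 5.29 to 6.00, a difference of 0.63 ± 0.18 (SE), and its other probe differed by 0.53 with overlap. Rprd2, a regulator of RNA polymerase II, stood at 6.95, 6.74 and 7.03 against 6.21 to 6.56, a difference of 0.55 ± 0.15 (SE). Ddr1, a collagen receptor kinase, stood at 9.65, 9.79 and 9.67 against 8.94 to 9.58, a difference of 0.38 ± 0.18 (SE). The groups were apart for each of these, by margins well under 2-fold.

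The largest differences of the 14 were in dim transcripts, 5730507C01Rik at 0.88 ± 0.23 and Tcp11, a testis-expressed gene, at 0.75 ± 0.18 (SE), which were detected on 2 and 3 of the 7 controls. Pex5, the import receptor of peroxisomes, and Polr3e, a subunit of RNA polymerase III, were higher by 0.38 and 0.34, and the other 2 probes of Pex5 differed by 0.16 and 0.20. Lower at day 4 were Efhd1, a mitochondrial calcium-binding protein, by a difference of -0.45 ± 0.23 (SE), Kiz, a centrosome protein, at -0.34, Sfxn1, a mitochondrial serine transporter, at -0.22, and Faf1, an adaptor of ubiquitin-dependent degradation, at -0.21. The other probe of Kiz differed by -0.0046 and that of Sfxn1 by -0.0953, and the other probe of Faf1 went the other way, by 0.39. With the mean of a gene's probes in place of the brightest, Faf1, Kiz, Magi1, Mtor, Pex5 and Sfxn1 overlapped. With day 4 array 4 included, 7 of the 14 still had no overlap: 5730507C01Rik, Ddit4, Ddr1, Efhd1, Magi1, Polr3e and Rprd2. The count of genes without overlap depended on single arrays. The higher count of 10 became 77 without control 6, 55 without day 4 array 1, 200 without day 4 array 2, 126 without day 4 array 3, 23 without control 2 and 16 without control 1. The lower count of 4 became 31, 48, 92 and 63 without control 6 and day 4 arrays 1, 2 and 3, 9 without control 4 or control 7, 8 without control 1 and 6 without control 2. Fewer arrays make separation easier, so these counts rise in part by construction.

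**Figure D5:**
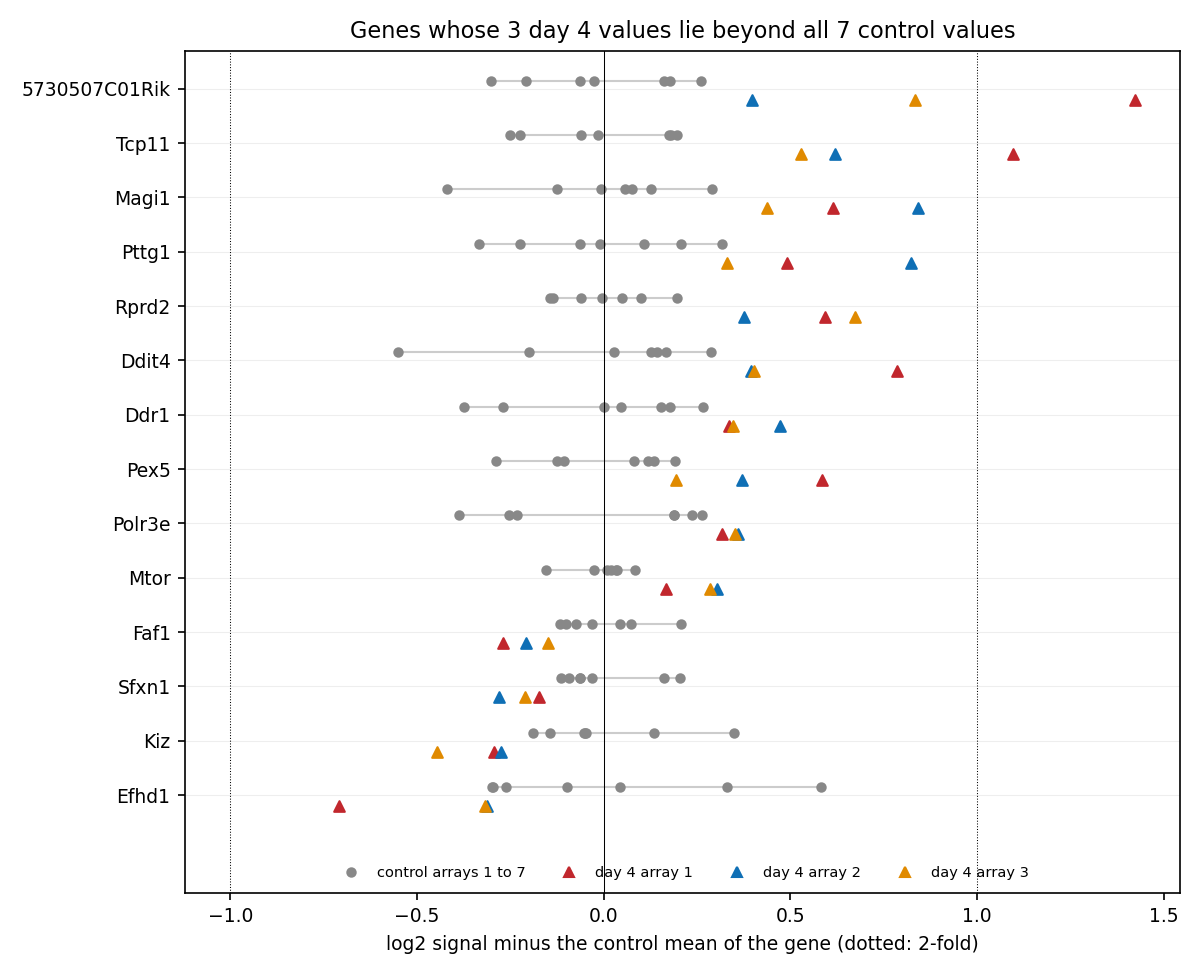
Log2 signal minus the gene's control mean (x axis) for the 14 genes whose 3 day 4 values (triangles) lay beyond all 7 control values (grey points). Dotted lines mark a 2-fold difference, and only 5730507C01Rik and Tcp11 on day 4 array 1 pass it.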

How the data were processed

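In the deposited scanner table, per the file headers, every array has a signal column and a column of detection p-values. These deposited signals are linear intensity readings without background subtraction, as judged from the values. Per the labels' protocols, biotin-labelled cRNA was hybridised; the reading software is not stated in these sources. The deposited p-values stood 2441 lines too low from near the top of the table on. They were moved back, after which no p-value broke the order of the signals. A second deposited table gives log2 values for 16247 probes (medians 8.51 to 8.57). It ranked the probes as the signals did, and no header or label records what the authors did to the signals to obtain it.

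With limma 3.58.1 in R 4.3.3, the signals of the 10 arrays were background-corrected (normexp on the detection p-values, offset 16), quantile-normalised and put on the log2 scale. Probes were named by the platform annotation where it gave 1 symbol (14836 of the value table's probes, 14124 with a signal). Probes detected at p under 0.05 on at least 3 of the 10 arrays were kept, and the brightest probe stood for a gene, which left 9449 genes. Groups were compared with lmFit and eBayes, two-sided, with Benjamini-Hochberg adjustment over these genes. A further 8133 probes without a name were fitted alike and 0 were called (lowest adjusted p 0.9989). The procedure was tested on simulated data. The number of arrays limits the precision.

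Arrays, gene lists and named genes were chosen with earlier results of these data known. Genes were named if called or at least 2-fold apart without overlap (0 genes by either), as the member of each list with the largest difference, as the 10 with the largest range over the day 4 arrays, or from fixed markers. Of the fixed genes, Mki67, Krt25, Krt85, Kdr, Cd68, Lck, S100a9, Ly6g, Hba-a1 and Hbb-b1 were not among the genes tested. The alternatives were other normalisations, filters and probe choices, the value table, array weights, a replicate block, day 4 array 4 or the day 14 arrays added, and arrays left out.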

Additional observations from a re-analysis of the deposited data

Results flagged for a closer look

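A control array stood far from the other 6 in 31 of the 119 control groups tested (32 gene list means and 87 genes), by Dixon's gap test for 7 samples. The test is set to flag about 1 in 20 groups by chance. That rate does not hold here, because many of the genes were chosen on these same values. The groups also share the same 7 arrays and some of their genes, so the flags are a description. Control 6 was the array apart in 22 of the 31, control 1 in 6, control 5 in 2 and control 2 in 1. Control 6 was low in the list means of fat (8.77), circadian (8.24) and complement genes (8.70) and high in those of hair follicle (12.58) and antioxidant genes (9.96). Control 5 was low in the cholesterol synthesis list (9.26).

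Control 6 was the high array for the hair genes Krt71 (14.33), Krt33a (13.59), Crym (12.45) and Tchhl1 (11.88), and for Cxcl10 (11.11), Psmb8 (12.71) and Cd3d (9.07). It was the low array for the fat genes Adipoq (9.18), Plin1 (4.56), Thrsp (6.71) and Dgat2 (11.04), the matrix genes Col1a2 (7.61), Dcn (13.09) and Mmp2 (11.88), and for Krt77 (8.29), Cd163 (7.05) and Gsn (4.50). Control 1 was the low array for the pigment genes Mlana (4.65), Pmel (5.58), Dct (8.33), Tyrp1 (5.40) and Sox10 (7.75), and for Car9 (5.28). Control 5 was the high array for Tnnc1 (12.52) and control 2 for Alas2 (9.96). The 3 day 4 arrays are too few for this rule.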

How the results depend on the processing

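No gene was called under any of 23 alternatives, with lowest adjusted p-values of 0.5971 to 1. With no adjustment, 27 genes passed p under 0.05. Deviations of same-numbered arrays of the 2 groups from their group means had correlations across genes of -0.6042, 0.3466 and 0.2351. The labels do not say whether the numbers pair the samples. These correlations cannot settle it, since differently numbered arrays were not compared in this way. The replicate block gave 0 calls (lowest adjusted p 0.8444) and 117 genes at an unadjusted p under 0.05, and array weights gave 564. Genes without overlap and at least 2-fold apart, 0 in each direction, numbered 1 higher and 1 lower with day 4 array 4 included, and 0 to 5 higher and 0 to 13 lower with 1 array left out. Without day 4 array 1 and control 6, a choice made after seeing the data, they numbered 1 and 2, and without control 1 too, 4 and 3. At any fold, 10 genes higher and 4 lower became 6 and 1 with day 4 array 4 included, 12 to 200 and 4 to 92 with 1 array left out, 127 and 79 without day 4 array 1 and control 6, and 203 and 173 without control 1 too. The mean of a gene's probes gave 2 lower. The cause of these shifts was not tested, except that fewer arrays ease separation. Of the 32 list medians, 28 changed sign under at least 1 alternative, as did 57 of the 87 named genes.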
